A study of Mus musculus with 24 samples.

Results

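The 9 genes described here encode ion channels and ion transporters of the retinal pigment epithelium (RPE), the pigmented cell layer behind the retina. They were taken by name from the roles of their products, with earlier results of these data known. Shares of all genes printed below are therefore a description and not a test of the list. The 9 genes are Kcnj13, Best1, Clcn2, Clic6, Slc4a5, Slc4a4, Slc12a2, Atp1b1 and Car14. They are 9 of the 31053 gene identifiers in the deposited counts, and all 9 were found. Of the 9, 8 passed the filter on low counts and stand among the 12303 genes tested, while Best1 did not pass. The data are 24 libraries of RNA from isolated mouse RPE, sequenced as tags near the 3' ends of polyadenylated transcripts. Mutant mice carried floxed Ift20 together with Dct-Cre, and control mice were positive for Dct-Cre, so the driver was present in every group. There are 6 groups of 4 libraries, mutants and controls at P11 and P29 (postnatal days 11 and 29) and at 3M (3 months). Ift20 encodes a protein of intraflagellar transport, which assembles cilia, and the Dct promoter is active in pigment cells, which include melanocytes as well as the RPE. The labels give a mixed background, record no sex, do not state how many Ift20 alleles were floxed and do not say whether a library, numbered as a biological replicate, holds 1 animal or several. The p-values therefore set differences between groups against the spread between these libraries, whose relation to single animals is not known.

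The RPE carries ions and water between the retina and the choroid, and its channels and pumps are sorted to the membrane facing the photoreceptors (apical) or the choroid (basolateral). The sodium pump sits on the apical membrane of the RPE, in contrast to most epithelia, and the potassium that it takes up leaves again through apical inward rectifier channels. Chloride enters through an apical sodium, potassium and chloride cotransporter and leaves through basolateral chloride channels, while bicarbonate crosses through sodium bicarbonate cotransporters and is interconverted with carbon dioxide by carbonic anhydrases. Mutations of KCNJ13 and BEST1 cause inherited retinal disease in humans.

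Expression is given in CPM, the count of a gene relative to the total gene count of its library, scaled by TMM factors. A fold change is a log2 value of mutant over control, or of the later over the earlier age, and a gene is said to have risen or fallen where the edgeR quasi-likelihood test gave a Benjamini-Hochberg adjusted p under 0.05 over all 12303 genes. A library held 1513440 to 2889946 gene counts, so that 3 counts corresponded to 1.04 to 1.98 CPM, a limit that covers counting error only. Ift20 was at 76.7 to 94.2 CPM in mutants and 60.7 to 149.8 CPM in controls at P11, at 57.9 to 88.8 CPM in mutants and 84.9 to 124 CPM in controls at P29, and at 97.4 to 117 CPM in mutants and 118 to 159.9 CPM in controls at 3M. The groups overlapped at P11 and P29 and did not overlap at 3M. Its 3' tag may lie outside the deleted part, so these levels do not check the labels. The 16 markers of RPE, among them Rpe65, Rlbp1 and Tyrp1, were detected in every group, and their summed level is given below beside the results that it touches.

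The promoters of Kcnj13, Slc4a5 and Car14 are shown because these 3 genes were lower in P11 mutants and rose with age in both genotypes. Each line holds 250 bases before and 50 bases after the gene's start in RefSeq (build GRCm38.p6), 5' to 3' on the strand of the gene, at chr1:87394680-87394979 (minus strand), chr6:83237125-83237424 (plus strand) and chr3:95904636-95904935 (minus strand). The RefSeq start of Slc4a5 lies inside the gene's GENCODE span. Capitals mark matches to the motifs that were searched.
Kcnj13: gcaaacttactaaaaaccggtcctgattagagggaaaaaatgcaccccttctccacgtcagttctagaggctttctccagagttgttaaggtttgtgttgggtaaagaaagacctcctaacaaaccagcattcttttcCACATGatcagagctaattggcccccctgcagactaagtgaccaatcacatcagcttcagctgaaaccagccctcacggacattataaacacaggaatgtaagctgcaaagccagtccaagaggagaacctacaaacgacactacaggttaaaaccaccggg
Slc4a5: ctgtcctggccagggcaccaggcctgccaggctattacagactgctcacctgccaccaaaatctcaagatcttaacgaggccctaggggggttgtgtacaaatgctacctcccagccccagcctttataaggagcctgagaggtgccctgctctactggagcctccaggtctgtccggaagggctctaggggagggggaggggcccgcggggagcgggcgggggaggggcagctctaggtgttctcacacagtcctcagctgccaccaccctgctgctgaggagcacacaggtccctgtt
Car14: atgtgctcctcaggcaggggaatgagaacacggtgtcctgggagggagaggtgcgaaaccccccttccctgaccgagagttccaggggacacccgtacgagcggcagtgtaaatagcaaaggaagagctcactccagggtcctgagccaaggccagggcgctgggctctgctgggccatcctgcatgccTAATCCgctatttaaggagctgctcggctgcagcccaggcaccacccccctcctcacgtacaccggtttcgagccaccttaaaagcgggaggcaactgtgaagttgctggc
RefSeq promoters were used for 7 of the 9 genes, all but Clic6 and Slc12a2. They were searched on both strands for CACGTG and CATGTG, the E-box letters read by MITF, a transcription factor of pigment cells, and for TAATCC, the letters read by OTX2 and CRX. Kcnj13 held 1 match to CATGTG, written on the opposite strand as CACATG, that began 112 bases before the start. Car14 held 1 match to TAATCC that began 61 bases before the start, and Best1 held 1 match to TAATCC. The promoters of Slc4a5, Slc4a4, Clcn2 and Atp1b1 held no match to these letters within the window. Of 32851 mouse promoters of the same length, 7.15% held CACGTG, 14.2% held CATGTG and 7.06% held TAATCC.

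The question put to mutants and controls of the same age is whether loss of Ift20 in pigment cells changes the RNA of the RPE, and 5 of the 8 tested genes were lower in P11 mutants. Kcnj13, Clic6, Slc4a5, Slc4a4 and Car14 fell, with log2 fold changes between -0.71 and -0.34, and none of the 8 rose. Over all genes tested, 3.67% were lower and 3.26% were higher at that age. At P29, Kcnj13, Clic6 and Slc4a5 were lower, 3 of 8, against 1.21% of all genes. At 3M, Clic6 alone was lower, 1 of 8, against 0.48% of all genes. Clcn2, Slc12a2 and Atp1b1 did not pass the test at any age. Mutants lay below controls without overlap for 3 of the 8 genes at P11, 5 at P29 and 1 at 3M, against 4.97%, 4.09% and 3.0% of all genes. The median log2 fold change of the 8 genes was -0.34 at P11, -0.24 at P29 and -0.080 at 3M, and the medians of all genes were -0.0016, -0.00073 and 0.032. In bulk RNA, fewer cells of a type and less RNA per cell cannot be told apart.

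**Figure D1:**
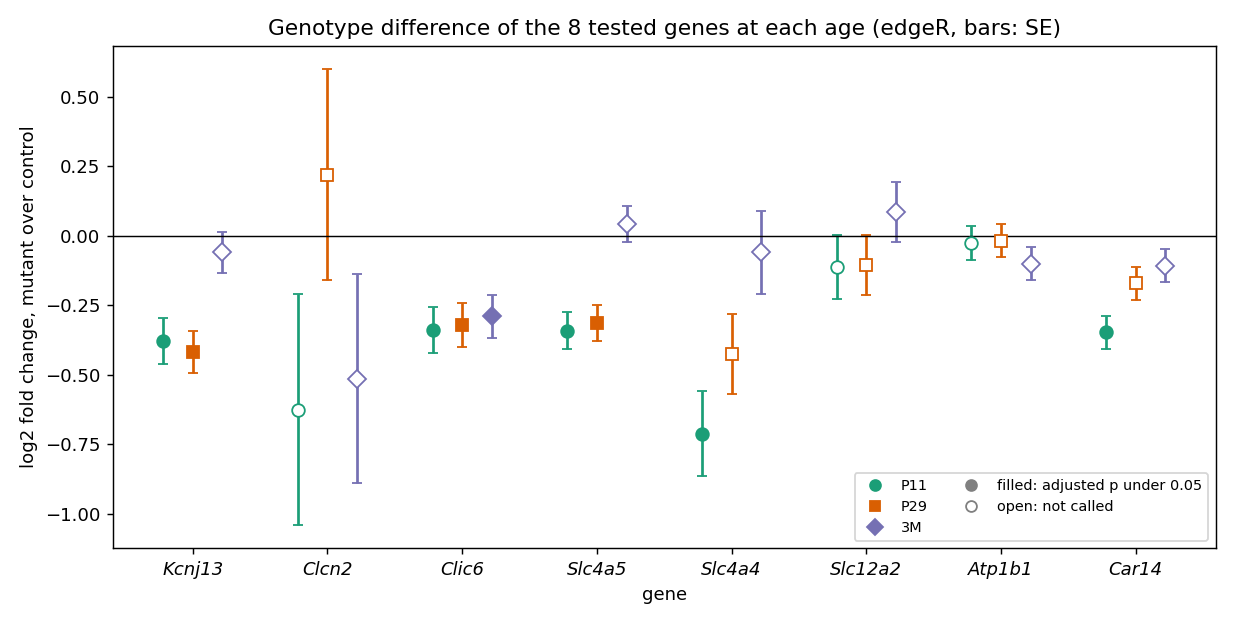
Log2 fold changes of mutants over controls (y axis) of the 8 tested genes (x axis) at P11, P29 and 3M. Points carry bars of 1 standard error from the edgeR fit and are filled where the adjusted p was under 0.05. The 5 filled points at P11, 3 at P29 and 1 at 3M all lie below 0.

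Kcnj13 (ENSMUSG00000079436, chr1:87386363-87394729, minus strand, GRCm38) encodes Kir7.1, the inward rectifier potassium channel of the apical RPE membrane. At P11 it was measured at 155, 138, 134 and 143 CPM in the 4 mutant libraries, against 194, 224, 149 and 173 CPM in the 4 control libraries. The lowest control library lay inside the range of the mutants, and the mean of the mutants was 77.1% of the mean of the controls (log2 fold change -0.38, SE 0.083, edgeR adjusted p = 0.00101). This call was lost in a fit to the 8 libraries of P11 alone (-0.39, adjusted p = 0.0578) and with voom and quality weights (-0.33, adjusted p = 0.107). At P29 Kcnj13 stood at 514, 513, 514 and 478 CPM in mutants, against 712, 694, 645 and 647 CPM in controls. Every mutant library was below every control library at this age, with a mean of 74.8% of the controls (log2 fold change -0.42, SE 0.076, edgeR adjusted p = 3.75e-05). At 3M the values were 969, 981, 950.3 and 907 CPM in mutants and 997, 1020.3, 985 and 967 CPM in controls. These ranges overlapped, the mean of the mutants was 95.9% of the controls, and the difference did not pass the test (log2 fold change -0.060, SE 0.075, edgeR adjusted p = 0.885).

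With age, Kcnj13 had the widest span of the 8 tested genes in both genotypes. In mutants the mean at P29 was 3.54 times that at P11 (log2 fold change 1.82, SE 0.081, edgeR adjusted p = 1.70e-37), and the mean at 3M was 1.88 times that at P29 (log2 fold change 0.91, SE 0.076, edgeR adjusted p = 1.58e-18). In controls the corresponding ratios were 3.65 (log2 fold change 1.86, SE 0.081, edgeR adjusted p = 1.38e-38) and 1.47 (log2 fold change 0.56, SE 0.075, edgeR adjusted p = 3.83e-09). The libraries of a genotype did not overlap between any pair of ages. The genotype effect at 3M minus that at P29 was 0.36 on the log2 scale (SE 0.11, edgeR adjusted p = 0.0825), which missed the threshold. It passed in a fit to the libraries compared (adjusted p = 0.0387), with DESeq2 (adjusted p = 0.0247) and with voom (adjusted p = 0.000479). Exons of Gigyf2, on the opposite strand, share 623 bases with exons of Kcnj13, and whether strand was used in the counting is not stated in the sources read here. Gigyf2 did not pass the test between genotypes at any age, with log2 fold changes of 0.17 at P11, -0.13 at P29 and 0.29 at 3M.

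Among the chloride channel genes, Clic6 was lower in mutants at all 3 ages. Clic6 (ENSMUSG00000022949, chr16:92485736-92541243, plus strand, GRCm38) encodes a member of the chloride intracellular channel family. It was at 189, 203, 223 and 227 CPM in P11 mutants, against 221, 297, 294 and 258 CPM in P11 controls, where the highest mutant library lay just above the lowest control library. At P29 it was at 562, 535, 529.9 and 520.0 CPM in mutants, against 765, 595, 679 and 644 CPM in controls, and the groups did not overlap. At 3M it was at 732, 714, 618 and 710.0 CPM in mutants, against 855, 804, 873 and 859 CPM in controls, again without overlap. The mutant means were 78.7%, 80.0% and 81.8% of the control means at P11, P29 and 3M. In log2 terms Clic6 differed by -0.34 (SE 0.084, edgeR adjusted p = 0.00414) at P11, -0.32 (SE 0.079, edgeR adjusted p = 0.00577) at P29 and -0.29 (SE 0.078, edgeR adjusted p = 0.0190) at 3M. Single libraries decided the calls at the later ages. The P29 call was lost without control library 1 (-0.25, adjusted p = 0.111), which held the highest value. The 3M call was lost without mutant library 3 (-0.24, adjusted p = 0.175), which held the lowest value, and without control libraries 1, 3 or 4 (adjusted p of 0.0525, 0.0695 and 0.0629).

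Clic6 rose with age in both genotypes. The mean at P29 was 2.55 times that at P11 in mutants (log2 fold change 1.35, SE 0.082, edgeR adjusted p = 1.68e-27) and 2.51 times in controls (log2 fold change 1.33, SE 0.082, edgeR adjusted p = 2.54e-27). The ratios of 3M to P29 were 1.29 in mutants (log2 fold change 0.37, SE 0.079, edgeR adjusted p = 0.000222) and 1.26 in controls (log2 fold change 0.34, SE 0.078, edgeR adjusted p = 0.000818). The differences of its genotype effect between ages were 0.016 for P29 minus P11 (SE 0.11) and 0.033 for 3M minus P29 (SE 0.11), and neither passed the test.

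Clcn2 (ENSMUSG00000022843, chr16:20702964-20717746, minus strand, GRCm38) encodes the voltage-gated chloride channel ClC-2, whose loss in mice leads to degeneration of photoreceptors. It was at 23.6, 21.4, 28.6 and 4.47 CPM in P11 mutants, against 23.1, 31.3, 47.5 and 19.7 CPM in P11 controls. The P29 values were 28.6, 49.2, 49.5 and 34.1 CPM in mutants and 37.8, 23.1, 51.3 and 25.8 CPM in controls, and the 3M values were 50.0, 44.0, 16.6 and 36.7 CPM in mutants and 42.5, 51.9, 72.8 and 44.0 CPM in controls. The genotypes overlapped at every age, and the spread between libraries was wide, with a coefficient of variation of 53.7% in P11 mutants. The log2 fold changes of -0.63 (SE 0.42, edgeR adjusted p = 0.457) at P11, 0.22 (SE 0.38, edgeR adjusted p = 0.912) at P29 and -0.51 (SE 0.38, edgeR adjusted p = 0.736) at 3M did not pass the test. With age, Clcn2 was higher at P29 than at P11 in mutants (log2 fold change 1.06, SE 0.40, edgeR adjusted p = 0.0470). That call was lost with library totals, median-of-ratios factors, DESeq2 and voom, at adjusted p of 0.0550 to 0.0710, and without mutant libraries 1, 2 or 4 of P11 or 2, 3 or 4 of P29, at 0.0521 to 0.116. Exons of Fam131a and Polr2h, on the opposite strand, share 85 and 82 bases with exons of Clcn2. Neither neighbour passed the test between genotypes at any age.

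Best1 (ENSMUSG00000037418, chr19:9985174-10001633, minus strand, GRCm38) encodes bestrophin-1, a calcium-activated anion channel of the basolateral RPE membrane. It was barely counted, with 48 counts over the 24 libraries, 16 libraries at 0 and a highest count of 18. Among mutants, 1 library of each age had a count, of 8 at P11, 5 at P29 and 3 at 3M. Among controls, 1 library had 1 count at P11, 3 libraries had 9, 18 and 3 counts at P29, and 1 library had 1 count at 3M. Most of these values lie at or near the limit set by 3 counts, so no fold change is given and Best1 entered no test. The annotated 3' end of Best1 lies 75 bases from the 3' end of Fth1, a ferritin gene on the opposite strand that was measured at 492.9 to 1045 CPM. Whether the position of the 3' tag or the counting rules bear on the low counts of Best1 was not tested.

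The bicarbonate genes Slc4a5, Slc4a4 and Car14 were lower in P11 mutants, and the mutant and control libraries of each did not overlap at that age. Slc4a5 (ENSMUSG00000068323, chr6:83219828-83304945, plus strand, GRCm38) encodes the sodium bicarbonate cotransporter NBCe2. It was at 522, 528, 492 and 495 CPM in P11 mutants, against 733, 578, 655 and 614 CPM in P11 controls (log2 fold change -0.34, SE 0.067, edgeR adjusted p = 0.000153). At P29 it was at 997, 1036, 969 and 1069 CPM in mutants, against 1311, 1148, 1268 and 1331 CPM in controls (log2 fold change -0.31, SE 0.065, edgeR adjusted p = 0.000563). At 3M it was at 1299, 1287, 1333 and 1331 CPM in mutants, against 1271, 1378, 1214 and 1242 CPM in controls (log2 fold change 0.041, SE 0.065, edgeR adjusted p = 0.932). Mutants lay below controls without overlap at P11 and at P29, at 79.0% and 80.5% of the control mean, and the groups overlapped at 3M, at 103%.

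Slc4a5 was the gene among the 8 whose genotype effect differed between ages in the edgeR fit. The effect at 3M minus that at P29 was 0.35 on the log2 scale (SE 0.092, edgeR adjusted p = 0.0295), 1 of 8 genes against 0.61% of all genes higher in that comparison. The effect at 3M minus that at P11, a comparison added after the values had been seen, was 0.38 (SE 0.093, edgeR adjusted p = 0.00656), again 1 of 8 against 1.94% of all genes. In mutants Slc4a5 rose at both steps, with means at P29 of 2.00 times those at P11 and at 3M of 1.29 times those at P29 (log2 fold changes 1.00 and 0.37, edgeR adjusted p of 5.31e-25 and 6.74e-06). In controls it rose at the first step, 1.96 times (log2 fold change 0.97, SE 0.066, edgeR adjusted p = 3.11e-24), and the ratio of 3M to P29 was 1.01 (log2 fold change 0.014, SE 0.065, edgeR adjusted p = 0.943). The call for 3M minus P29 was lost without any 1 of 9 of the 16 libraries, which were mutant libraries 1 and 3 and control libraries 1 and 4 of P29, and mutant libraries 3 and 4 and control libraries 1, 3 and 4 of 3M. The values in those 16 fits ran from 0.33 to 0.40 on the log2 scale. It was also lost with median-of-ratios factors (adjusted p = 0.0573) and with no filter on low counts (adjusted p = 0.0957). The call for 3M minus P11 held in all 16 such fits, at 0.31 to 0.43. No gene of the 8 differed in genotype effect between P29 and P11, where 2.63% of all genes did, by edgeR, DESeq2 or voom. Car14 reached an unadjusted p of 0.0389 in that comparison.

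**Figure D2:**
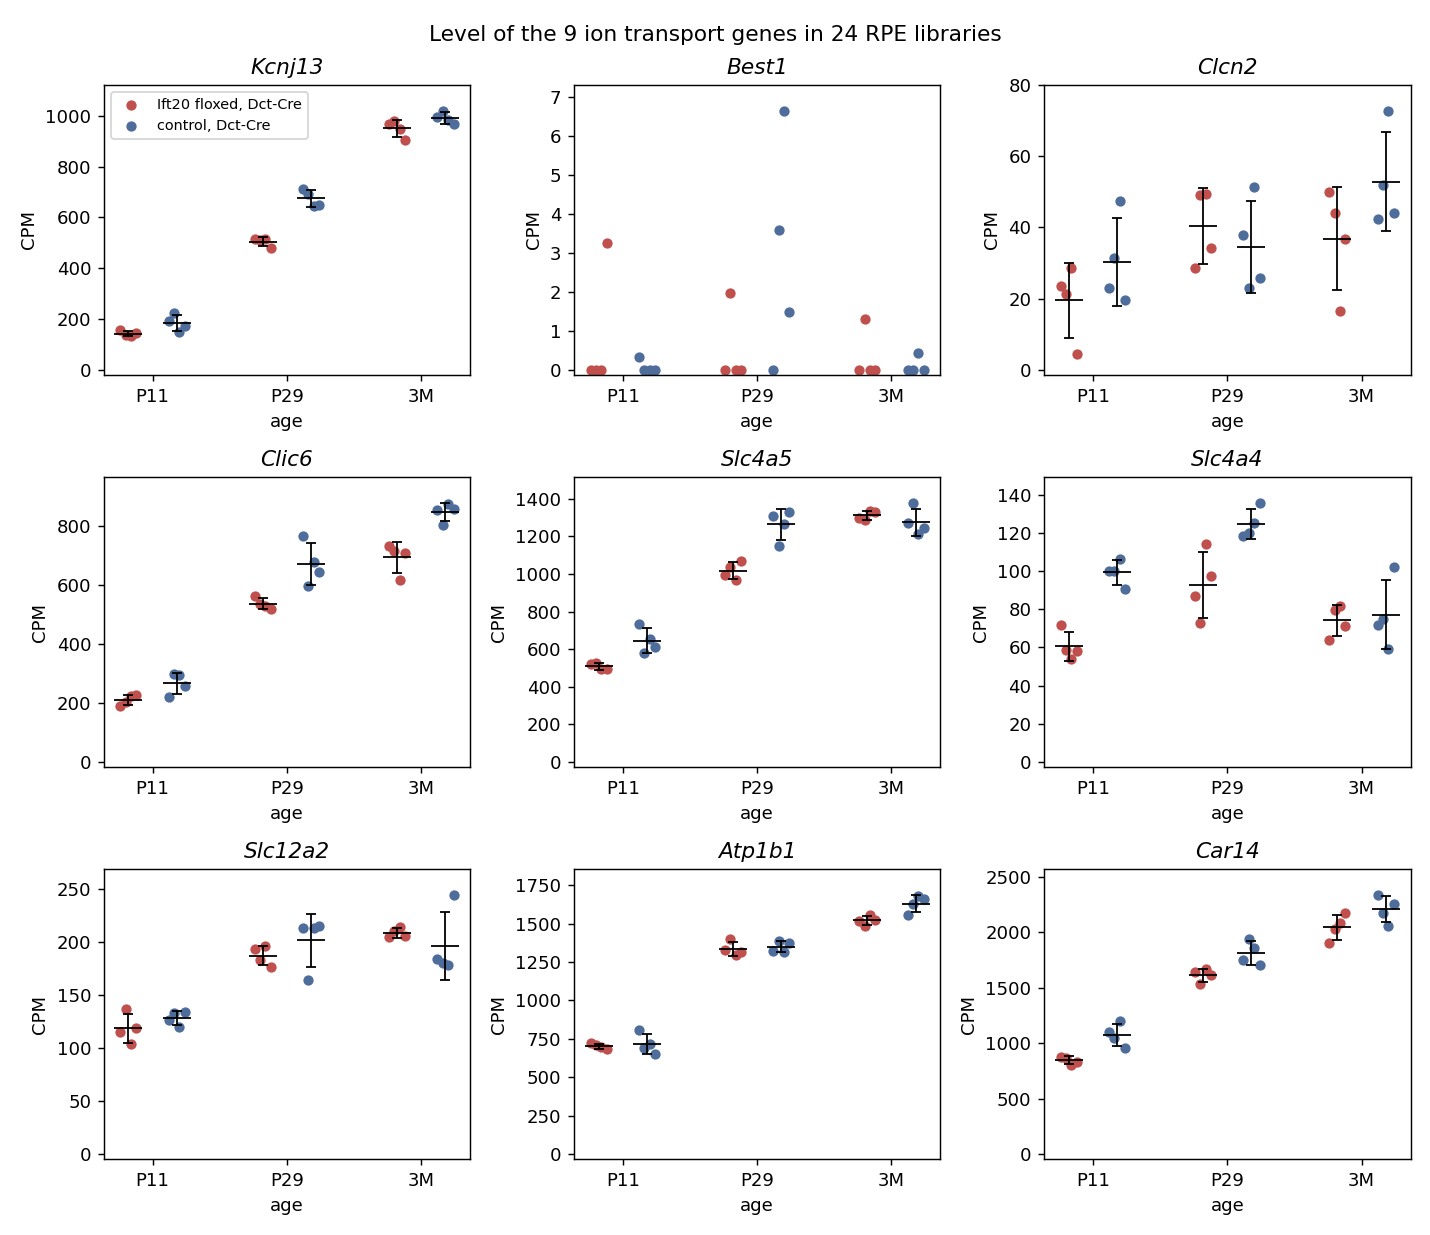
Levels of the 9 genes in CPM (y axis, 1 panel per gene, starting at 0) for each library, by age, with mutants left of controls and bars for the mean and SD of 4 libraries, and no mean is drawn for Best1. Kcnj13, Clic6, Slc4a5, Slc12a2, Atp1b1 and Car14 sit higher at P29 than at P11 in every library of both genotypes, while Best1 stays at 6.64 CPM or less.

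Slc4a4 (ENSMUSG00000060961, chr5:88886818-89239653, plus strand, GRCm38) encodes the sodium bicarbonate cotransporter NBCe1. It was at 71.7, 58.9, 54.0 and 58.1 CPM in P11 mutants, against 100.3, 99.9, 106 and 90.9 CPM in P11 controls, and the highest mutant library lay below the lowest control library. The mean of the mutants was 61.1% of the mean of the controls (log2 fold change -0.71, SE 0.15, edgeR adjusted p = 0.000642). At P29 it was at 87.1, 72.9, 114 and 97.6 CPM in mutants, against 119, 119.9, 125 and 136 CPM in controls. These groups did not overlap either, at 74.4% of the control mean, but the difference did not pass the test (log2 fold change -0.42, SE 0.14, edgeR adjusted p = 0.103). Without mutant library 3, the highest of its group, it passed (-0.54, adjusted p = 0.0430), as it did with voom (adjusted p = 0.0476). At 3M the values were 64.1, 79.7, 81.7 and 71.2 CPM in mutants and 72.0, 75.0, 59.3 and 102 CPM in controls, with full overlap (log2 fold change -0.059, SE 0.15, edgeR adjusted p = 0.968).

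The mean of Slc4a4 was highest at P29 in both genotypes. In mutants its mean rose 1.53 times between P11 and P29 (log2 fold change 0.62, SE 0.15, edgeR adjusted p = 0.000607), and the ratio of 3M to P29 was 0.799 (log2 fold change -0.33, SE 0.15, edgeR adjusted p = 0.152). In controls the ratio of P29 to P11 was 1.26 (log2 fold change 0.33, SE 0.15, edgeR adjusted p = 0.0739), and the mean fell at 3M to 0.618 times that at P29 (log2 fold change -0.69, SE 0.15, edgeR adjusted p = 0.000199). The genotype effect at 3M minus that at P11 was 0.65 (SE 0.21, edgeR adjusted p = 0.0822), and it passed without control library 4 of 3M (0.82, adjusted p = 0.0209), the highest of its group.

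Car14 (ENSMUSG00000038526, chr3:95897768-95904691, minus strand, GRCm38) encodes carbonic anhydrase XIV, a membrane-bound enzyme that interconverts carbon dioxide and bicarbonate. It was at 880.0, 868, 802 and 832 CPM in P11 mutants, against 1101, 1048, 1198 and 956 CPM in P11 controls (log2 fold change -0.35, SE 0.060, edgeR adjusted p = 1.67e-05). At P29 it was at 1643, 1535, 1671 and 1612 CPM in mutants, against 1754, 1944, 1864 and 1707 CPM in controls, without overlap, but the difference did not pass the test (log2 fold change -0.17, SE 0.059, edgeR adjusted p = 0.121). With voom it passed at P29 (adjusted p = 0.0213). At 3M it was at 1907, 2028, 2084 and 2176 CPM in mutants, against 2337, 2179.7, 2062 and 2255 CPM in controls, with overlap (log2 fold change -0.11, SE 0.059, edgeR adjusted p = 0.510). The mutant mean was 78.6%, 88.9% and 92.8% of the control mean at P11, P29 and 3M. Car14 rose with age at both steps in both genotypes, with ratios of P29 to P11 of 1.91 in mutants and 1.69 in controls, and of 3M to P29 of 1.27 in mutants and 1.22 in controls. The log2 fold changes at these steps were 0.93 and 0.34 in mutants and 0.76 and 0.28 in controls, with edgeR adjusted p of 7.84e-26, 3.89e-06, 2.74e-20 and 0.000186. Exons of Aph1a, on the opposite strand, share 445 bases with exons of Car14. Aph1a had a log2 fold change of 0.21 (SE 0.27) at P11 and passed the test in no comparison of genotypes.

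Slc12a2 and Atp1b1, which serve chloride entry and sodium extrusion at the apical membrane, did not pass the test between genotypes at any age. Slc12a2 (ENSMUSG00000024597, chr18:57878678-57946821, plus strand, GRCm38) encodes NKCC1, the cotransporter of sodium, potassium and chloride. It was at 115, 137, 104 and 119 CPM in P11 mutants, against 127, 133, 119.6 and 134 CPM in P11 controls. The values were 193, 183, 196 and 176 CPM in P29 mutants, against 213, 164, 213 and 215 CPM in P29 controls, and 204, 210.0, 214 and 206 CPM in 3M mutants, against 183, 180.2, 178 and 244 CPM in 3M controls. The genotypes overlapped at each age. Mutants differed from controls by -0.11 (SE 0.11, edgeR adjusted p = 0.665) at P11, -0.11 (SE 0.11, edgeR adjusted p = 0.821) at P29 and 0.086 (SE 0.11, edgeR adjusted p = 0.889) at 3M on the log2 scale. It rose between P11 and P29 in mutants (log2 fold change 0.66, SE 0.11, edgeR adjusted p = 7.04e-07) and in controls (log2 fold change 0.65, SE 0.11, edgeR adjusted p = 9.28e-07). Between P29 and 3M it did not pass the test in mutants (log2 fold change 0.16, SE 0.11, edgeR adjusted p = 0.418) or in controls (log2 fold change -0.035, SE 0.11, edgeR adjusted p = 0.911).

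Atp1b1 (ENSMUSG00000026576, chr1:164437109-164458355, minus strand, GRCm38) encodes the beta 1 subunit of the sodium pump, which the catalytic alpha subunit needs to reach the membrane. At P11 it was at 721, 710.5, 695 and 684 CPM in mutants, against 804, 692, 714 and 649 CPM in controls. At P29 it was at 1326, 1399, 1293 and 1313 CPM in mutants, against 1319, 1386, 1316 and 1376 CPM in controls, and at 3M at 1519, 1482, 1555 and 1524 CPM in mutants, against 1553, 1628, 1677 and 1661 CPM in controls. The mutant mean was 98.3%, 98.8% and 93.3% of the control mean, and at 3M a single mutant library reached above the lowest control library. The log2 fold changes were -0.026 (SE 0.061, edgeR adjusted p = 0.876), -0.018 (SE 0.060, edgeR adjusted p = 0.957) and -0.10 (SE 0.060, edgeR adjusted p = 0.582). Atp1b1 rose between P11 and P29 in mutants (log2 fold change 0.92, SE 0.061, edgeR adjusted p = 4.55e-25) and in controls (log2 fold change 0.92, SE 0.061, edgeR adjusted p = 9.79e-25). Between P29 and 3M it rose in mutants (log2 fold change 0.19, SE 0.060, edgeR adjusted p = 0.0218) and in controls (log2 fold change 0.27, SE 0.060, edgeR adjusted p = 0.000396). In mutants the call was lost without mutant libraries 1, 3 or 4 of P29 or 3 or 4 of 3M (adjusted p of 0.0516 to 0.0746) and with library totals (log2 fold change 0.091, adjusted p = 0.394), and with no filter on low counts (adjusted p = 0.0681). Exons of Nme7, on the opposite strand, share 575 bases with exons of Atp1b1, and Nme7 did not pass the test between genotypes at any age.

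With age, all 8 tested genes were higher at P29 than at P11 in mutants, against 16.4% of all genes, and 6 of 8 were higher in controls, against 16.5%. Clcn2 and Slc4a4 were the 2 that did not pass in controls. Between P29 and 3M, 5 of 8 were higher in mutants, namely Kcnj13, Clic6, Slc4a5, Atp1b1 and Car14, against 5.44% of all genes. In controls 4 of 8 were higher, namely Kcnj13, Clic6, Atp1b1 and Car14, against 3.49%, and Slc4a4 was lower, against 8.5%. The median log2 fold change of the 8 genes was 0.97 in mutants and 0.84 in controls for P29 over P11, and 0.27 in mutants and 0.28 in controls for 3M over P29. The medians of all genes for these comparisons lay between -0.028 and -0.011. Markers of cell types moved with age beside these genes. Of the 16 RPE markers, 11 were higher and 2 lower at P29 than at P11 in mutants, and 10 were higher and 4 lower in controls. Their sum was 28919 to 30334 CPM at P11 and 50948 to 53752 CPM at P29 in mutants, and 31480.0 to 32834 CPM and 58667 to 59484 CPM at these ages in controls. Of 13 endothelial markers, 2 were lower in mutants and 13 in controls, and all 5 tested erythrocyte markers were lower in both genotypes, at 28947 to 33372 CPM at P11 and 3758 to 4037 CPM at P29 in mutants and 26946 to 29031 CPM and 2566 to 3199 CPM in controls. Of 14 lens markers, 13 were higher in mutants, and 1 was higher and 8 lower in controls. Between P29 and 3M, 9 RPE markers were higher and 5 lower, and all 16 rod markers were lower, in each genotype. The part of these markers in the changes of the 8 genes was not tested. Scaling by library totals alone moved the median of all genes for 3M over P29 to -0.11 in both genotypes, so that the value of each of the 8 genes at that step was lower on that scale.

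**Figure D3:**
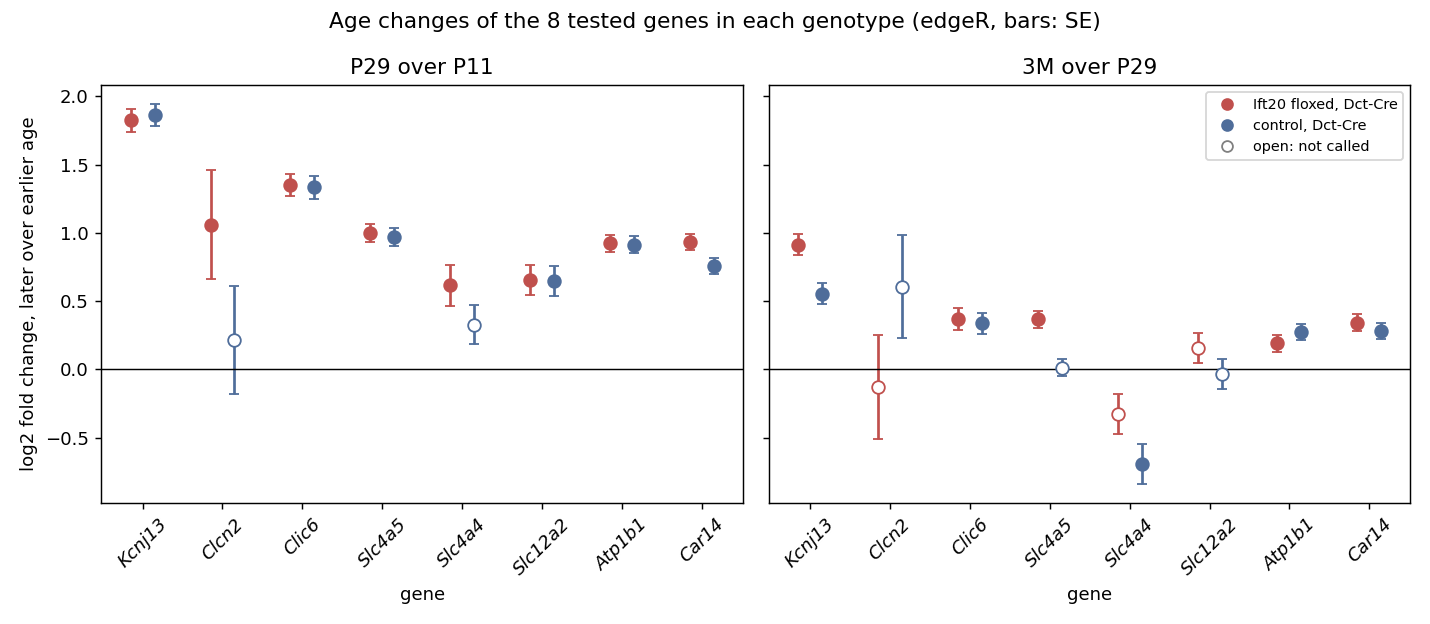
Log2 fold changes (y axis) of P29 over P11 and of 3M over P29 of the 8 tested genes (x axis) in mutants and controls. Bars are 1 standard error from the edgeR fit. Kcnj13 has the largest values at P29 over P11, 1.82 in mutants and 1.86 in controls, and Slc4a4 in controls is the gene below 0 that passed the test at 3M over P29.

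The levels of the 8 genes were also compared with each other across the 24 libraries. Over the 28 pairs, Pearson r of log2 CPM ran from 0.159 to 0.978 with a median of 0.896. These values describe libraries that share their ages and genotypes, and after the group means were taken out r ran from -0.54 to 0.50 with a median of 0.014. The lower values of the 24-library r were those of Slc4a4 with the other genes. For each gene, the 3 tested genes whose levels ran most alike over the 24 libraries were taken. For Kcnj13 they were Rdh5, Rlbp1 and Inpp5k (r of 0.994, 0.993 and 0.992), of which Rdh5 and Rlbp1 belong to the visual cycle. For Slc4a5 they were Nos1, Rpe65 and Lrat (0.984, 0.983 and 0.982), of which Rpe65 and Lrat are visual cycle enzymes. For Clic6 they included Tmem56 and Slc6a20a (0.989 and 0.987). For Car14 they were Fam213a, Trf and Pltp (0.988, 0.988 and 0.984), and for Atp1b1 Enpp2, Timp3 and Gm973 (0.989, 0.988 and 0.987). Slc12a2 had Wipf3, Clu and Ermn, all at 0.933. Clcn2 had Slc20a2, Hacd2 and F3 (0.896, 0.867 and 0.862). Slc4a4 had the lowest values, with Nr4a2, Lmna and Igfbp4 (0.768, 0.768 and 0.761).

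Markers of the RPE and of other cells differed between the genotypes beside these genes. Of the 16 RPE markers, 9 were lower and none higher in P11 mutants, with a median log2 fold change of -0.30, and their summed level was 28919 to 30334 CPM in mutants, against 31480.0 to 32834 CPM in controls. At P29, 5 of the 16 were lower and 3 higher, at sums of 50948 to 53752 CPM in mutants and 58667 to 59484 CPM in controls. At 3M, 2 were lower and 1 higher, at 74021 to 77881 CPM in mutants and 74246 to 77302 CPM in controls. Rod markers, 16 in the list, with Sag and Gnat1 among them, were higher in mutants for 7 genes at P11 and 15 genes at P29 and at 3M. Their sums were 18472 to 19029 CPM in mutants and 15018 to 16268 CPM in controls at P11, 18040.4 to 19384 CPM in mutants and 12548 to 13306 CPM in controls at P29, and 8241 to 8745 CPM in mutants and 4595 to 5015 CPM in controls at 3M. No RPE or rod marker was at 0 in any group.

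At P11, 5 of the 8 transport genes were lower in mutants, against 3.67% of all genes. So were 7 of 13 endothelial, 6 of 6 tested myelin, 4 of 6 pericyte, 3 of 11 stromal fibroblast and 2 of 5 choroidal melanocyte markers. In other lists 1 of 15 inner retinal neuron and 1 of 6 tested ciliary body and iris markers were lower. No tested marker of microglia and macrophages (9), cones (7) or erythrocytes (5) was lower. Of 14 lens markers, 6 were lower and none higher, at a sum of 168 to 226 CPM in mutants and 321 to 367 CPM in controls. The endothelial sum was 238 to 279.6 CPM in mutants, against 532 to 552 CPM in controls, and the myelin sum was 42.7 to 65.4 CPM in mutants, against 359 to 483 CPM in controls, with Mog at 0 in mutants. Mitochondrial genes took 10.2% to 11.1% of gene counts in P11 mutants and 7.30% to 8.79% in P11 controls, and the share of reads outside any feature was 26.5% to 27.5% in mutants and 22.7% to 24.1% in controls. At P29, where Kcnj13, Clic6 and Slc4a5 were lower, 13 of 14 lens markers were higher in mutants, at a sum of 1424 to 1557 CPM, against 299 to 327 CPM in controls. Erythrocyte markers were higher in mutants for 4 of 5 tested genes at P29, at 3758 to 4037 CPM in mutants and 2566 to 3199 CPM in controls, and for 4 of 5 at 3M, at 2499 to 2664 CPM in mutants and 2082 to 2212 CPM in controls. At 3M, where Clic6 was lower, 3 of 7 tested cone markers and 4 of 15 inner retinal neuron markers were higher in mutants, and no lens marker passed. The part of these differences in the results for the transport genes was not tested. Slc4a4 and Car14 are also expressed by Müller glia, whose list had 4 of 10 tested markers lower in P11 mutants, at a sum of 7609 to 8068 CPM in mutants and 8395 to 8710.3 CPM in controls. That list shares Rlbp1 with the RPE list, so its sum is not a level of Müller glia alone. Of its other members, Aqp4 was at 5.99 CPM in P11 mutants and 12.4 CPM in P11 controls and did not pass the test. Kcnj10 was at 2.22 CPM and 4.38 CPM in these groups and was not tested. The sum of the list was 20798 to 21662 CPM in 3M mutants and 19330 to 21576 CPM in 3M controls, higher than at P11, as was the RPE sum. Atp1b1 and Slc12a2 are used by neurons and glia as well as the RPE.

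**Figure D4:**
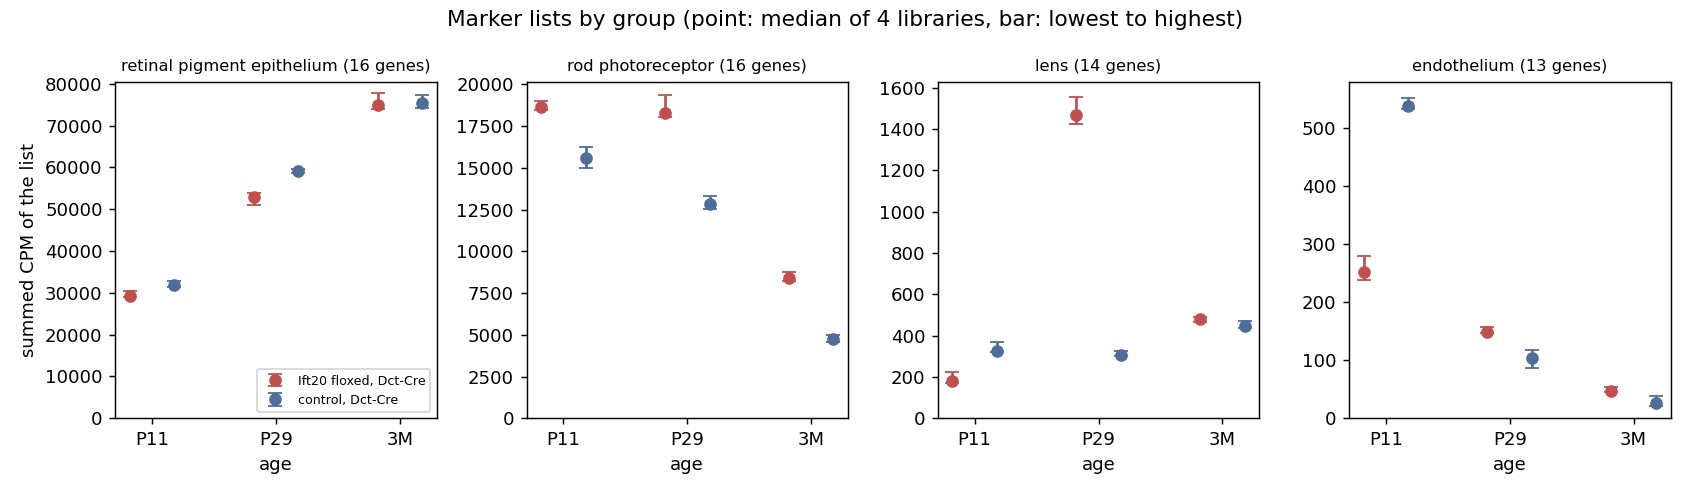
Summed CPM (y axes) of the markers of RPE (16 genes), rods (16), lens (14) and endothelium (13) by age, with mutants left of controls, as the median and range of 4 libraries. Rod sums lie above those of controls in mutants at each age, the lens sum is 1424 to 1557 CPM in P29 mutants and 299 to 327 CPM in P29 controls, and RPE sums lie below those of controls in mutants at P11 and P29.

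Around these genes, a wider list of 60 genes of ion, bicarbonate and water transport, the sodium pump and their regulators was measured, of which 46 were tested. In P11 mutants 3 of the 46 were higher and 5 lower, against 3.26% and 3.67% of all genes, with a median log2 fold change of -0.020. Kcnma1, a calcium-activated potassium channel, was higher, at 118 ± 16.6 CPM in mutants and 47.5 ± 5.43 CPM in controls (SD, n = 4 each, log2 fold change 1.32, SE 0.26, edgeR adjusted p = 0.000290). It was also higher at 3M (log2 fold change 1.89, SE 0.52, edgeR adjusted p = 0.0242), at 4.88 ± 1.17 CPM in mutants and 1.28 ± 0.707 CPM in controls. The 3M controls held 12 counts in all, near the limit set by 3 counts per library. The 3M call was lost with voom (adjusted p = 0.219) and without mutant libraries 1, 2 or 4 or control libraries 1, 2 or 4 (adjusted p of 0.0597 to 0.106). At P29 Kcnma1 was at 5.95 ± 3.25 CPM in mutants and 5.60 ± 5.57 CPM in controls. Slc12a7, a potassium and chloride cotransporter, was lower at P11, at 8.04 ± 3.17 CPM in mutants and 20.6 ± 3.98 CPM in controls (log2 fold change -1.38, SE 0.30, edgeR adjusted p = 0.000984). Aqp1, a water channel, was lower at P11 too, at 21.9 ± 10.4 CPM in mutants and 51.4 ± 15.2 CPM in controls (log2 fold change -1.23, SE 0.27, edgeR adjusted p = 0.00113). In P29 mutants 5 of the 46 were higher and 2 lower, against 1.63% and 1.21% of all genes. In 3M mutants 6 were higher and 1 lower, against 2.13% and 0.48%. Slc4a7, a sodium bicarbonate cotransporter, was higher in mutants at P29 (log2 fold change 0.57, SE 0.11, edgeR adjusted p = 0.000261) and at 3M (log2 fold change 0.60, SE 0.13, edgeR adjusted p = 0.00124), at 56.1 ± 5.26 CPM in 3M mutants and 37.1 ± 2.90 CPM in 3M controls. Slc9a3r1, a scaffold of apical transporters, was lower at P29 (log2 fold change -0.48, SE 0.12, edgeR adjusted p = 0.00659) and at 3M (log2 fold change -0.52, SE 0.12, edgeR adjusted p = 0.00289). Its P29 call was lost without mutant library 2 (adjusted p = 0.0985). Slc26a7, an anion transporter, was higher in P29 mutants (log2 fold change 0.31, SE 0.079, edgeR adjusted p = 0.00884), and this was lost without mutant library 3 (adjusted p = 0.0688) or control library 3 (adjusted p = 0.0520). Atp1b2, the beta 2 subunit of the sodium pump, was higher in mutants at P11 (log2 fold change 0.31, SE 0.083, edgeR adjusted p = 0.00938), at P29 (log2 fold change 0.32, SE 0.083, edgeR adjusted p = 0.00987) and at 3M (log2 fold change 0.45, SE 0.084, edgeR adjusted p = 7.36e-05), at 389 ± 29.2 CPM in 3M mutants and 284 ± 33.1 CPM in 3M controls. Its P11 call was lost without control library 1 (adjusted p = 0.0521), and its P29 call without mutant libraries 2 or 4 or control library 4 (adjusted p of 0.0595 to 0.0793). Kcnma1, Slc4a7 and Atp1b2 are also expressed by retinal neurons, and rod markers were higher in mutants at these ages, whose part was not tested.

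With age, the wider list moved in both directions. Between P11 and P29, 14 of 46 passed as higher in mutants, where 16.4% of all genes did, and 15 as lower, where 15.2% did. In controls 12 passed as higher, where 16.5% of all genes did, and 17 as lower, where 15.6% did. Trpm3, a cation channel, and Ezr, which links apical microvilli to actin, rose in both genotypes, with log2 fold changes for Trpm3 of 1.25 in mutants and 1.50 in controls and for Ezr of 1.25 in mutants and 1.12 in controls. Slc4a7 fell, with log2 fold changes of -1.66 in mutants and -2.18 in controls. Between P29 and 3M, 5 passed as higher in mutants, where 5.44% of all genes did, and 10 as lower, where 7.27% did. In controls 4 passed as higher, where 3.49% did, and 11 as lower, where 8.5% did. Trpm1 and Slc4a7 fell at that step in both genotypes. Their log2 fold changes were -1.20 and -1.14 in mutants and -1.08 and -1.16 in controls. The summed rod markers were lower at 3M than at P29 in both genotypes as well.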

How the data were processed

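RNA of isolated RPE was sequenced as 3' tags, and the authors deposited whole-number counts per gene, 1 file per library. STAR and mm10 are named, without versions, per the submitters' processing notes. No source read here states the counter, its annotation or its use of strand and molecular identifiers. Each of the 24 files held 31053 gene identifiers, and special entries that name no gene stayed out of library sizes and tests: unassigned reads made up 18.6% to 27.5% of all entries, ambiguous reads 0.192% to 0.322% and reads aligned to several places 31.0% to 37.2%. Symbols and positions came from GENCODE M21 (GRCm38, the assembly of mm10) and promoters from RefSeq.

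Genes were tested with edgeR 4.0.16 in R 4.3.3 by the quasi-likelihood test (TMM factors, filterByExpr on groups, robust fit, all 24 libraries, 1 mean per group). Adjusted p-values are Benjamini-Hochberg over 12303 genes. The standard error is the log2 fold change over the root of F. CPM values for correlations took a prior count of 1. The test was also run on counts simulated from the P29 control means. Those counts lack the age differences of these libraries, so that run does not check the results above. No 2 libraries of a group agreed within sampling noise (36 pairs, chi-square per gene 3.03 to 7.36). Alternatives were median-of-ratios factors, library totals, DESeq2 1.42.0, voom with quality weights (limma 3.58.1), no filter (19634 genes), at least 5 CPM in 4 libraries (11931 genes), a fit to the libraries compared, a replicate block and leaving out each library. The 9 genes, the wider list of 60 and the marker lists were chosen with earlier results of these data known. Named genes are the 9, up to 3 called genes of the wider list with the smallest p in each comparison, and for each of the 8 tested genes the 3 with the highest correlation. Some genes that these rules take are not reported here.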

Additional observations from a re-analysis of the deposited data

Results flagged for a closer look

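The genotype effect on Slc4a5, the NBCe2 cotransporter gene, differed between ages by its interaction terms, at 0.35 on the log2 scale for 3M minus P29 and 0.38 for 3M minus P11, as described above.

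In 8 of 54 groups of 4 libraries, 1 library stood apart from the other 3 by Dixon's criterion. With normally distributed values, chance alone meets it in about 1 group in 20. For Kcnj13 the lowest P29 mutant library, at 478 CPM, lay below 3 libraries between 513 and 514 CPM. For Slc12a2, control library 2 of P29 was low at 164 CPM, against 213 to 215 CPM in the other 3, and control library 4 of 3M was high at 244 CPM, against 178 to 183 CPM in the other 3. Best1 gave the remaining 5, each a group in which 1 library had counts and the other 3 had none. Such a group always meets the criterion, so the rate of 1 in 20 does not apply to it. The Best1 values were 3.25 CPM in P11 mutants, 0.334 CPM in P11 controls, 1.97 CPM in P29 mutants, 1.31 CPM in 3M mutants and 0.436 CPM in 3M controls.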

How the results depend on the processing

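Over the 8 tested genes and 10 comparisons, 619 of 640 values under other processing kept their direction and their side of the threshold, 10 lost a call, 7 gained one and 4 changed sign. On leaving out 1 library, 766 of 832 values kept both, 25 lost a call, 4 gained one and 37 changed sign, and no called value changed sign. The count of the 8 genes called for the genotype effect at 3M minus P29, 1 as reported, was 0 with median-of-ratios factors and with no filter on low counts, 2 in a fit to the libraries compared, with DESeq2 and with voom, and 0 to 1 on leaving out a library, while all genes called there numbered 182 with voom, against 105. It was 5 with voom for mutants against controls at P29, 0 to 1 at 3M and 1 to 2 for 3M minus P11 on leaving out a library. The cause was not tested.

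The values that changed sign follow, on the log2 scale. With library totals Atp1b1 was at 0.0064 at P29 and Slc4a5 at -0.073 for 3M over P29 in controls, Clic6 was at -0.015 for 3M minus P29 in a fit to the libraries compared, and Slc12a2 was at -0.0030 for P29 minus P11 with voom. On leaving out a library, log2 values ran from -0.071 to 0.036 for Atp1b1 at P11 and from -0.17 to 0.11 for Slc4a4 at 3M. With age they ran from -0.037 to 0.51 for Clcn2 at P29 over P11 in controls and from -0.31 to 0.11 at 3M over P29 in mutants, and at 3M over P29 in controls from -0.030 to 0.040 for Slc4a5 and from -0.16 to 0.011 for Slc12a2. For P29 minus P11 they ran from -0.038 to 0.081 for Slc4a5, -0.054 to 0.054 for Atp1b1, -0.037 to 0.10 for Clic6, -0.080 to 0.084 for Slc12a2 and -0.14 to 0.045 for Kcnj13. They ran from -0.0044 to 0.14 for Clic6 and -0.23 to 0.36 for Clcn2 at 3M minus P11, and from -0.037 to 0.087 for Clic6 at 3M minus P29.

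The labels number the libraries 1 to 4 in each group. Same-numbered libraries did not deviate together (r of -0.036 to 0.032 over all comparisons of groups), and the edgeR fit reported above used no pairing. These values cannot exclude a pairing with a small effect. With the replicate number as a block the counts of the 8 genes called were 5 at P11, 3 at P29 and 1 at 3M, as without it, and all genes called at P11 numbered 833, against 853. Of the wider list, Slc4a7 for P29 minus P11 missed the threshold with the block (0.52, adjusted p = 0.0507). With 48 counts over the 24 libraries, Best1 did not pass the filter on low counts and entered no test.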

Other observations

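Among the wider list of transport genes, the genotype effect of a few genes differed between ages. For P29 minus P11, 3 of 46 were higher and none lower, where 2.63% of all genes passed in either direction. Aqp1 was the clearest in p, at 2.02 (SE 0.38, edgeR adjusted p = 0.000161): it averaged 21.9 ± 10.4 CPM in mutants and 51.4 ± 15.2 CPM in controls at P11, and 50.0 ± 5.55 CPM in mutants and 28.7 ± 14.7 CPM in controls at P29 (SD, n = 4 each). The P29 groups overlapped, at 45.7 to 58.1 CPM in mutants and 17.7 to 50.3 CPM in controls, and that difference alone did not pass the test. Slc26a7 (0.40, SE 0.11, edgeR adjusted p = 0.0315) and Slc4a7 (0.52, SE 0.15, edgeR adjusted p = 0.0436) also passed for P29 minus P11, but each lost the call without a filter on low counts. Slc26a7 also lost it without mutant library 4 or control library 4 of P11, mutant library 2 or 3 or control library 1 or 3 of P29, and Slc4a7 without any mutant library or control library 1 or 2 of P11, mutant library 2, 3 or 4 or control library 1 or 2 of P29, at adjusted p of up to 0.0990 and 0.149. For 3M minus P29, Slc26a7 was lower, at -0.49 (SE 0.11, edgeR adjusted p = 0.00632), 1 of 46, where 30 of all 12303 genes were lower. It averaged 583 ± 45.4 CPM in mutants and 470.5 ± 23.2 CPM in controls at P29, and 469 ± 12.6 CPM in mutants and 531 ± 24.5 CPM in controls at 3M, where the difference between genotypes did not pass the test.

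For 3M minus P11, the comparison added after the values had been seen, Aqp1 (2.05, SE 0.40, edgeR adjusted p = 0.000377), Clic4 (1.35, SE 0.33, edgeR adjusted p = 0.00720) and Slc12a7 (1.46, SE 0.40, edgeR adjusted p = 0.0247) were higher. These were 3 of 46, where 1.94% of all genes were higher. Clic4, a chloride intracellular channel family member, lost the call without control library 4 of P11 (adjusted p = 0.0577). Slc12a7 lost it without any 1 of 4 libraries, mutant library 4 or control library 4 of P11, mutant library 3 or control library 2 of 3M, at adjusted p of 0.0516 to 0.101, in a fit to the libraries compared (adjusted p = 0.0526) and with voom (adjusted p = 0.104). Aqp1 and Clic4 are also expressed by endothelium, whose markers were lower in P11 mutants, and that part was not tested.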
